A study of Homo sapiens with 4 samples.

Results

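Sterol and fatty acid synthesis genes were followed after knockdown of CNOT4 in HEK293, a widely used cell line of human embryonic kidney origin. The set was chosen by gene symbol and holds 29 genes, of which 21 form a sterol arm (from acetyl-CoA thiolase to the last reductase of cholesterol synthesis, with the regulators INSIG1, STARD4 and SREBF2) and 8 form a fatty acid arm (FASN, ACACA, ACLY, SCD, ELOVL6, FADS1, FADS2 and the regulator SREBF1). Of 20457 gene symbols in each table, 28 matched a member by name, 20 of 21 in the sterol arm and 8 of 8 in the fatty acid arm. The remaining one, SC5D, was found under its older symbol SC5DL and is given separately, outside all counts. All 28 had a mean level of at least 1 TPM (transcript abundance corrected for length and scaled to a fixed sum per library) and were tested.

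The study asked how loss of CNOT4, an E3 ubiquitin ligase associated with the CCR4-NOT deadenylase complex, affects the way codon usage relates to mRNA level. RNA was sequenced in 4 libraries of cells kept in serum-containing medium and given 10 nM siRNA for 72 h. The siControl group (2 libraries, genotype label WT) received a negative control siRNA and the siCNOT4 group (2 libraries, genotype label CNOT4 knockdown) an siRNA against CNOT4. Both groups thus carry siRNA, and the labels give no other difference between them. The knockdown was transient and measured in bulk, so fewer cells responding and less RNA per cell cannot be told apart. The labels do not say whether replicates were separate cultures, so p values measure the spread between these libraries, which may be technical. With 2 libraries against 2, an exact two-sided permutation test cannot go below 0.333, and tests were therefore taken from a limma fit over all 14208 features that passed the filter.

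Cholesterol is built from acetyl-CoA through mevalonate, farnesyl diphosphate, squalene and lanosterol, and fatty acids are built from the same acetyl-CoA through malonyl-CoA. Both routes are driven by sterol regulatory element-binding proteins (SREBPs), membrane-bound transcription factors that are cut and released when membrane sterols are low. SREBP2, encoded by SREBF2, acts mainly on the sterol genes, whereas SREBP1, encoded by SREBF1, acts mainly on the fatty acid genes and is itself under control of liver X receptors (LXR).

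The targeted transcript and the libraries were examined first. CNOT4 was at 6.43 and 4.73 TPM in the siControl libraries and at 3.38 and 3.81 TPM in the siCNOT4 libraries. The groups did not overlap, but the difference of -0.51 on the log2 scale (SE 0.26) did not pass the test (limma adjusted p = 0.184). Under TMM scaling, quantile normalization and removal of length and GC trends, alternatives used below, CNOT4 was called lower. Its log2 fold changes were then -0.951, -1.146 and -1.295 (limma adjusted p = 0.0359, 0.0252 and 0.0131). Of all features 4.33%, 8.23% and 13.5% were called lower there. Over all tested features the median log2 fold change was 0.50, so a member with no difference in TPM lay below most other genes. The siControl libraries differed more from each other than the siCNOT4 libraries did. Over the 28 members, the SD of the log2 difference between replicates was 0.52 in siControl and 0.11 in siCNOT4. In the siControl pair, replicate 1 exceeded replicate 2 by a median of 0.12 in the sterol arm, 0.70 in the fatty acid arm and 0.38 over all features. Of 7 markers of HEK293 cells, KRT8, KRT18 and NEFL were each between 192.8 and 383.9 TPM in all libraries, whereas NEFM was below 1 TPM and PAX2 between 1.10 and 1.91 TPM. KRT8 alone overlapped between the groups. VIM and NEFL were lower in both siCNOT4 libraries, and KRT18, NEFM, PAX2 and INA were higher. Over all tested features 66.4% lay above and 10.6% below in this way. VIM was at 916.5 and 650.1 TPM in siControl and at 368.6 and 353.6 TPM in siCNOT4, and INA at 9.60 and 5.62 TPM against 18.9 and 20.8 TPM. Summed hepatocyte markers (4 genes) stayed between 0.364 and 0.444 TPM, adipocyte markers (3 of 4 genes, LEP at 0 in all libraries) between 0.863 and 2.45 TPM, and leukocyte markers (3 genes) between 0.544 and 1.60 TPM. Fibroblast markers (4 genes, none at 0 in all libraries) summed to 1.78 and 1.23 TPM in siControl and 9.54 and 9.86 TPM in siCNOT4, and the part of these markers in the results below was not tested.

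The fold changes of the fatty acid arm lay below those of most other genes, and those of the sterol arm lay closer to them. In the fatty acid arm 6 of 8 genes had a lower mean log2 level in siCNOT4, led by SREBF1, FADS1 and FADS2. In the sterol arm 15 of 20 genes had a higher one with TPM as deposited, led by STARD4, HMGCS1, LSS and IDI1, but so had 11531 of all 14208 features, and 5 of 20 stayed positive after TMM scaling, which sets a trimmed mean of log ratios equal between libraries. HMGCS1 was the one member that passed the test: it rose 1.90-fold in mean TPM (limma adjusted p = 0.0475). Over all features 11.3% were called higher and 1.29% lower, so 1 of 28 members called higher and 0 called lower is not above the background. At an unadjusted limma p under 0.05, 5 members were higher (ACAT2, HMGCS1, IDI1, MSMO1 and HSD17B7) against 38.0% of all features, and 1 was lower (FADS1) against 4.0%.

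With TPM as deposited, both siCNOT4 libraries lay above both siControl libraries in 12 members, all from the sterol arm, where 66.4% of all features did so. They lay below in 4 members, namely FDFT1 of the sterol arm and SREBF1, FADS1 and FADS2 of the fatty acid arm, where 10.6% of all features did so. The share of sterol genes that lay above was thus near that of all features, and the split of 12 above and 4 below turned with the scaling. It was 2 above and 16 below after TMM scaling, 7 and 11 after quantile normalization, and 4 and 17 with the length and GC trend removed. Shares over all features were not computed under these scalings, so these counts are no result about the members. The median log2 fold change was 0.26 in the sterol arm and -0.17 in the fatty acid arm. The sign of the sterol median turned with the scaling (-0.28 after TMM scaling, -0.07 after quantile normalization and -0.10 with the length and GC trend removed), while the fatty acid median stayed negative (-0.71, -0.47 and -0.79). Relative to the median of all features these were -0.25 and -0.67, and 5 of 20 sterol genes but 0 of 8 fatty acid genes lay above that median. The fold changes of the sterol arm thus did not stand above those of other genes as a whole. Those of the fatty acid arm lay below them, with no test of either. The median transcript length was 2706.5 nt in the sterol arm, 4943.5 nt in the fatty acid arm and 3320.5 nt over all features.

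**Figure D1:**
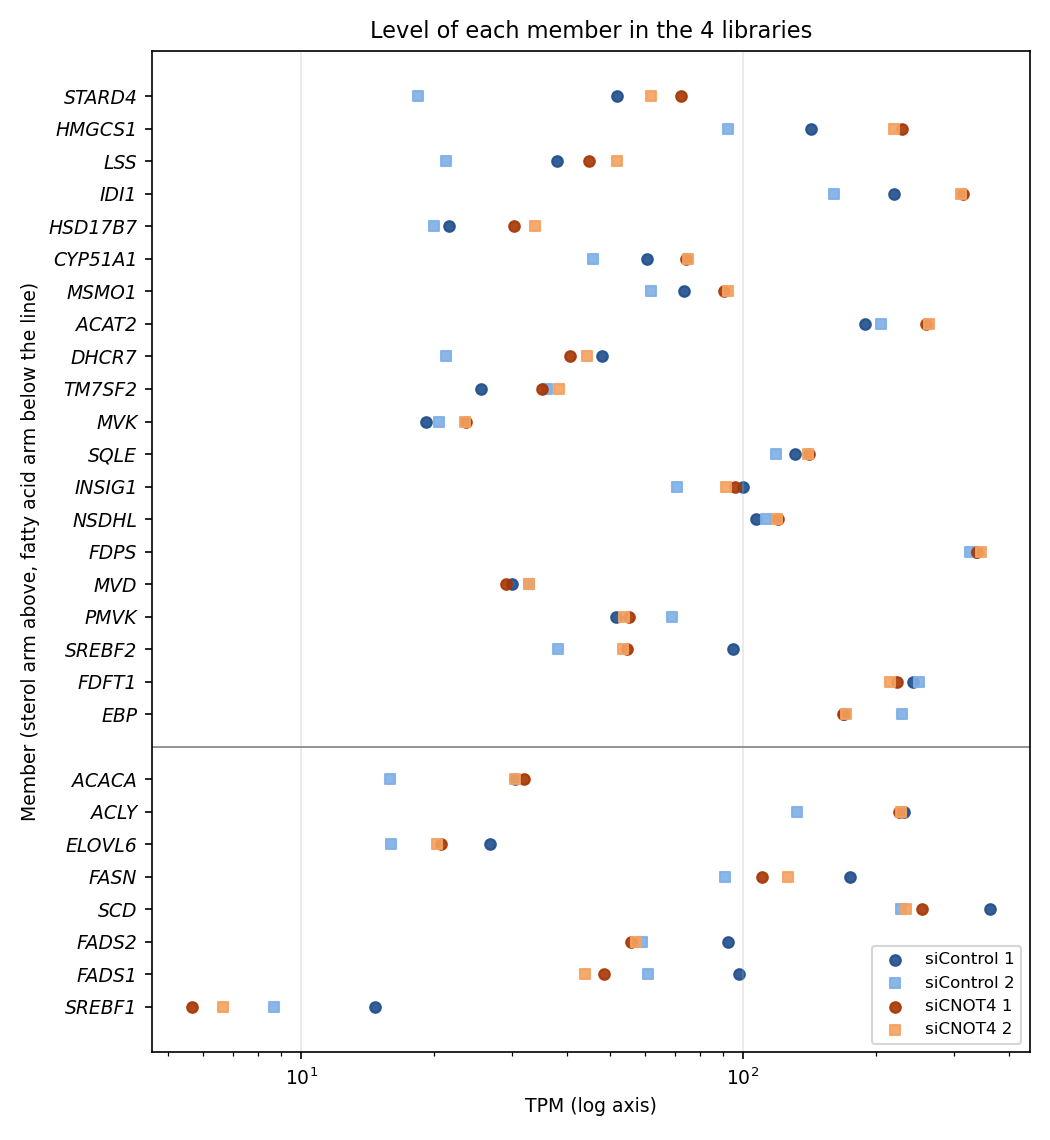
Level of each of the 28 members in TPM (horizontal log axis) in the 4 libraries, blue for siControl and orange or brown for siCNOT4, with the sterol arm above the line and the fatty acid arm below it. The siCNOT4 libraries lie close together, while the siControl libraries are far apart for STARD4, SREBF2, DHCR7 and most of the fatty acid arm.

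**Figure D2:**
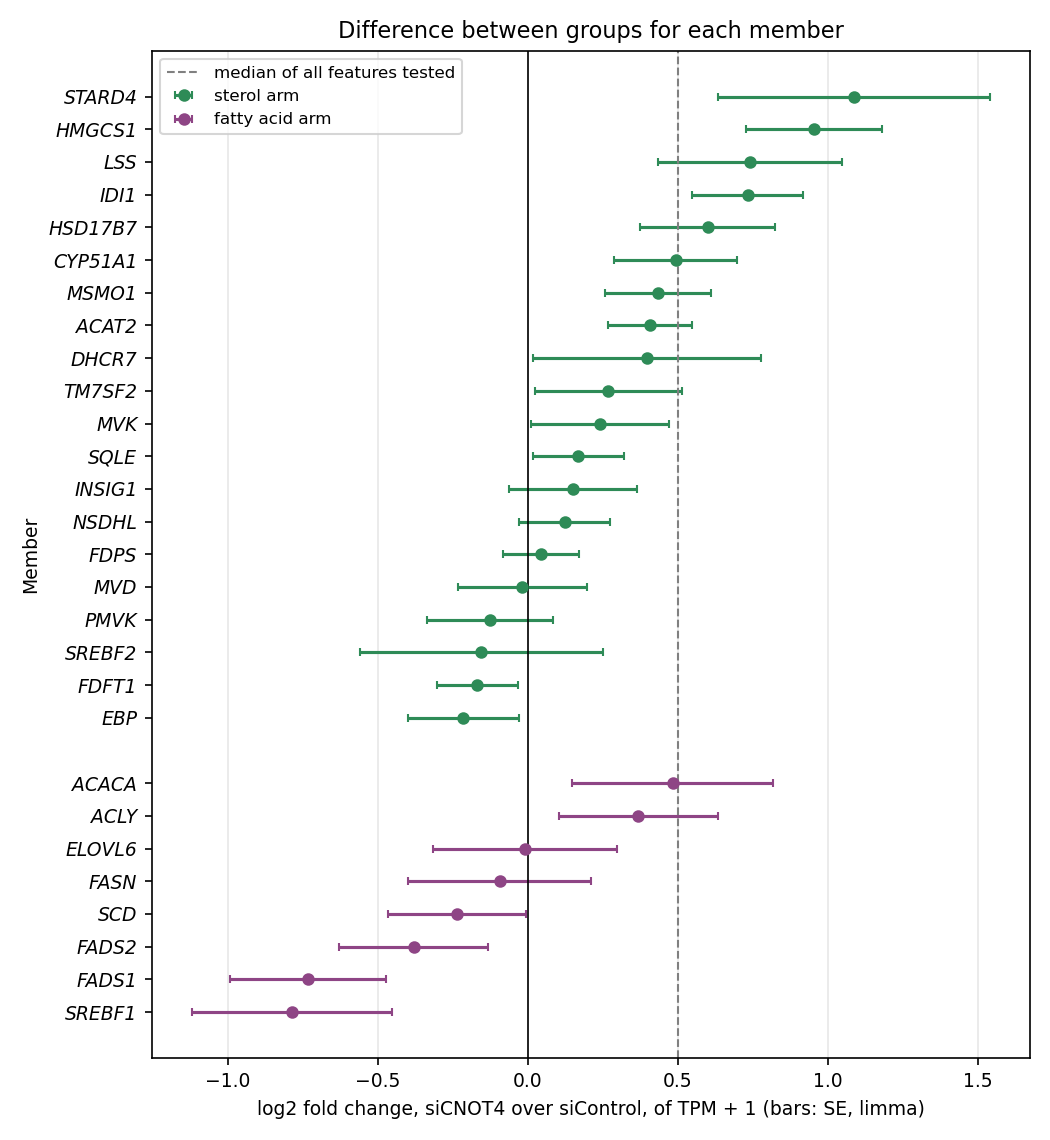
Log2 fold change of siCNOT4 over siControl on the log2(TPM + 1) scale (horizontal axis) for each member, green for the sterol arm and purple for the fatty acid arm, with bars of 1 SE from limma. The dashed line is the median of all 14208 features (0.50), which 5 sterol genes exceed and 0 of 8 fatty acid genes exceed.

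The DNA upstream of these genes was compared because SREBPs act through promoters and need a partner factor such as NF-Y, which binds CCAAT, or Sp1, which binds GC boxes. RefSeq promoters (GRCh38.p14) were found for 25 of 29 members, 18 in the sterol arm and 7 in the fatty acid arm. ACAT2, SQLE, FASN and FDFT1 had none in the table. The 250 bases before the most upstream start were searched on both strands. CCAAT was present in 14 of 18 sterol promoters (77.8%) and in 2 of 7 fatty acid promoters (28.6%), against 34.5% of 15843 protein-coding promoters. GGGCGG (a GC box) was present in 16 of 18 (88.9%) and 6 of 7 (85.7%), against 55.8%. TCACNCCAC, the core of the sterol regulatory element, was present in SREBF2 alone (4.0% of 25 members) against 0.871% of all promoters. The shorter CACNCCAC, which the longer core contains, was present in SREBF2, INSIG1 and SCD (12.0% of 25) against 4.96%. CACGTG, an E-box that SREBPs can also bind, was present in INSIG1 and SC5D (8.0% of 25) against 7.80%. The median GC content of these 250 bases was 66.6% in the sterol arm, 71.2% in the fatty acid arm and 62.0% over all promoters. A match is a description of the letters and shows no binding.

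Stretches of these promoters are shown for the members on which the comparison turns, each read 5′ to 3′ on the strand of its gene (GRCh38.p14, from RefSeq). Capitals mark CCAAT, its reverse complement ATTGG, or the TCACNCCAC core. Each stretch is a part of the 250 bases searched, so matches outside it are not shown. In the 250 bases CCAAT or its reverse complement occurs at 2 places in HMGCS1 and at 4 in MSMO1. The sterol genes shown are HMGCS1 (chr5:43313513-43313662, minus strand), the member that passed the test, STARD4 (chr5:111512591-111512735, minus strand), which had the highest fold change, MSMO1 (chr4:165327469-165327622, plus strand), a clear case of repeated CCAAT, and SREBF2 (chr22:41832925-41833074, plus strand), with the full core.
HMGCS1: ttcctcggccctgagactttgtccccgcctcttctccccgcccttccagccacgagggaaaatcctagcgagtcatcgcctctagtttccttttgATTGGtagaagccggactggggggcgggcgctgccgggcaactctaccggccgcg
STARD4: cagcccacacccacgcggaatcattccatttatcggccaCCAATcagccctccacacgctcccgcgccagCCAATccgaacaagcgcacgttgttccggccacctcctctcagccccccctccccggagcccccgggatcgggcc
MSMO1: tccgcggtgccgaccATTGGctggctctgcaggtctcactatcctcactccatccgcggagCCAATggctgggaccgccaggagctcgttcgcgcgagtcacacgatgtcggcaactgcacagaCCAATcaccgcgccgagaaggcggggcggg
SREBF2: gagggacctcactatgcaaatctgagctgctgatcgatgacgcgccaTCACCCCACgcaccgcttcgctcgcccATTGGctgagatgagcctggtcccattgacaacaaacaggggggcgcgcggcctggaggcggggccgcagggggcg

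The fatty acid genes shown are SCD (chr10:100346983-100347122, plus strand), where CCAAT occurs at 2 places, and FADS1 (chr11:61817198-61817253, minus strand) and SREBF1 (chr17:17837037-17837186, minus strand), the members with the lowest fold changes. CCAAT was not found in the 250 bases searched of FADS1 and SREBF1, of which 56 are shown for FADS1. The fatty acid genes ACACA, the highest of the arm, ELOVL6 and FADS2 lacked CCAAT as well. Their log2 fold changes were 0.48, -0.01 and -0.38. The sterol genes IDI1, CYP51A1, DHCR7 and PMVK also lacked CCAAT, with log2 fold changes of 0.73, 0.49, 0.40 and -0.13. The most matches, 5 each, were in MVK (0.24) and NSDHL (0.12), and EBP, the lowest sterol gene (-0.22), had 3. A relation between CCAAT and fold change was not tested.
SCD: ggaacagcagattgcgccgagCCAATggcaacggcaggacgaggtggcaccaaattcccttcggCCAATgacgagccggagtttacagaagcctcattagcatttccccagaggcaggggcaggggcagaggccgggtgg
FADS1: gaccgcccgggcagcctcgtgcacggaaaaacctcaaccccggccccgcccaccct
SREBF1: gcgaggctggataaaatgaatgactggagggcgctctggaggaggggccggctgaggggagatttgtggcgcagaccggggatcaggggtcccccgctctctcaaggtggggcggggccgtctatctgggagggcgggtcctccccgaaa

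The mevalonate steps held the one called gene. HMGCS1, which condenses acetyl-CoA and acetoacetyl-CoA into HMG-CoA, was at 142.7 and 92.5 TPM in siControl and at 228.4 and 219.0 TPM in siCNOT4. The group means were 117.6 ± 35.5 and 223.7 ± 6.69 TPM (SD, n = 2 each). The groups did not overlap, and the log2 fold change of 0.95 (SE 0.23) exceeded the log2 difference between the siControl libraries (0.62). The call was held after quantile normalization (limma adjusted p = 0.0454) but lost after TMM scaling (0.140) and with the length and GC trend removed (0.0885). It was also lost without siCNOT4 replicate 1 (0.198), without siCNOT4 replicate 2 (0.161), and under the other pseudocount and filters (0.0645 to 0.0868). Over all alternatives its limma adjusted p ranged from 5.61e-05 to 0.198.

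IDI1, the isomerase that makes dimethylallyl diphosphate, was at 219.5 and 160.7 TPM in siControl and at 313.8 and 311.8 TPM in siCNOT4. Its log2 fold change was 0.73 (SE 0.18), just short of the threshold (limma adjusted p = 0.0511), and the groups were apart. ACAT2, the cytosolic thiolase that makes acetoacetyl-CoA, was at 188.4 and 205.7 TPM against 259.2 and 263.7 TPM, with a log2 fold change of 0.41 (limma adjusted p = 0.0840). These 3 enzymes, at the entry and at the isoprene step of the route, had the largest differences of the group. The phosphorylation and decarboxylation steps in between were nearly level: MVK had a log2 fold change of 0.24, PMVK -0.13 and MVD -0.02, with limma adjusted p values of 0.432 to 0.951. FDPS, the farnesyl diphosphate synthase and one of the most abundant members, was at 336.5 and 326.2 TPM against 338.5 and 344.7 TPM (log2 fold change 0.04). Mevalonate genes summed to 987.6 and 907.2 TPM in siControl and to 1248 and 1249 TPM in siCNOT4.

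The squalene and lanosterol steps differed in sign, and none passed the test. FDFT1, squalene synthase and the first enzyme committed to sterols, was at 241.9 and 250.4 TPM in siControl and at 223.0 and 214.7 TPM in siCNOT4. It was the one sterol gene with both siCNOT4 libraries below both siControl libraries, and the difference was small (log2 fold change -0.17, SE 0.14, limma adjusted p = 0.353). SQLE, the squalene epoxidase, was between 118.9 and 140.9 TPM in all libraries and had a log2 fold change of 0.17. LSS, which closes the ring to lanosterol, was at 37.8 and 21.3 TPM in siControl and at 44.7 and 51.8 TPM in siCNOT4. Its groups were apart, but the log2 fold change of 0.74 (SE 0.31) was smaller than the log2 difference between the siControl libraries (0.80), and the limma adjusted p was 0.120.

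From lanosterol to cholesterol, 6 of 7 genes had a positive log2 fold change, and in 4 of them (CYP51A1, MSMO1, NSDHL and HSD17B7) both siCNOT4 libraries lay above both siControl libraries. These counts are near those of all features, of which 66.4% lay above in the same way. After TMM scaling HSD17B7 alone kept a positive value (0.07). HSD17B7, a ketoreductase of C4 demethylation, was at 21.6 and 19.96 TPM in siControl and at 30.3 and 33.7 TPM in siCNOT4 (log2 fold change 0.60, limma adjusted p = 0.0991). CYP51A1, the lanosterol demethylase, had a log2 fold change of 0.49, and MSMO1, the C4-methylsterol oxidase, 0.43. TM7SF2 and DHCR7, reductases of double bonds in the sterol ring, had 0.27 and 0.40, and in both the groups overlapped. NSDHL, a dehydrogenase of C4 demethylation, had 0.12. EBP, the sterol isomerase, was at 169.5 and 229.3 TPM in siControl and at 168.6 and 170.7 TPM in siCNOT4. Its log2 fold change of -0.22 (limma adjusted p = 0.386) rested on siControl replicate 2 and was 0.001 without that library. SC5D, the desaturase listed as SC5DL, was at 41.0 and 24.7 TPM against 37.4 and 35.3 TPM, and its groups overlapped (log2 fold change 0.19, limma adjusted p = 0.626).

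Among the sterol regulators, STARD4 had the highest fold change of all members and SREBF2 and INSIG1 showed little. STARD4, a sterol transfer protein of the cytosol, was at 51.7 and 18.4 TPM in siControl and at 72.5 and 61.9 TPM in siCNOT4. The groups did not overlap, but the siControl libraries differed by 1.44 on the log2 scale, more than the difference between groups (log2 fold change 1.09, SE 0.45, limma adjusted p = 0.121). Leaving out siControl replicate 1 gave a log2 fold change of 1.81, and leaving out the other siControl library gave 0.37.

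SREBF2 was at 94.7 and 38.1 TPM in siControl and at 54.5 and 53.4 TPM in siCNOT4. Both siCNOT4 libraries lay between the siControl libraries, and the difference (log2 fold change -0.16, SE 0.41, limma adjusted p = 0.779) changed sign with the control: it was 0.49 against siControl replicate 2 alone and -0.80 against siControl replicate 1 alone. INSIG1, the endoplasmic reticulum anchor that holds SREBPs back and is itself a classical SREBP target, was at 100.2 and 70.9 TPM in siControl and at 96.1 and 91.5 TPM in siCNOT4. Its groups overlapped as well (log2 fold change 0.15, SE 0.21, limma adjusted p = 0.592). HMGCS1 stood at 1.43 and 1.31 times INSIG1 in the siControl libraries and at 2.38 and 2.39 times INSIG1 in the siCNOT4 libraries, a pair chosen after its values were seen.

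In the fatty acid arm the sign differed between the first synthesis enzymes and the desaturases, and 0 of 8 genes passed the test. ACLY, which makes cytosolic acetyl-CoA from citrate, was at 231.8 and 132.6 TPM in siControl and at 225.2 and 228.3 TPM in siCNOT4. ACACA, which makes malonyl-CoA, was at 30.5 and 15.9 TPM against 32.0 and 30.4 TPM. Both had positive log2 fold changes (0.37 and 0.48, limma adjusted p 0.307 and 0.293) that turned negative after TMM scaling (-0.18 and -0.04), and their siCNOT4 values were close to siControl replicate 1, with replicate 2 lower. FASN, the fatty acid synthase that uses malonyl-CoA, was at 174.2 and 91.2 TPM in siControl and at 110.5 and 126.3 TPM in siCNOT4. Its siCNOT4 libraries lay between the siControl libraries (log2 fold change -0.09, limma adjusted p = 0.823).

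FADS1 and FADS2, the front-end desaturases that make polyunsaturated fatty acids, were lower together. FADS1 was at 97.9 and 60.9 TPM in siControl and at 48.6 and 43.8 TPM in siCNOT4, and FADS2 at 92.5 and 59.0 TPM against 55.8 and 57.4 TPM. In both genes both siCNOT4 libraries lay below both siControl libraries, for FADS2 by a narrow margin. The log2 fold changes were -0.73 (SE 0.26, limma adjusted p = 0.0915) and -0.38 (SE 0.25, limma adjusted p = 0.268). These neighbours share 490 exon bases on opposite strands of chromosome 11, and whether the counting used strand is not given in the sources used here, so their values are not fully independent.

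SCD, which makes monounsaturated fatty acids, was at 361.8 and 228.3 TPM in siControl and at 254.1 and 234.2 TPM in siCNOT4. ELOVL6, which lengthens palmitate to stearate, was at 26.7 and 15.9 TPM against 20.7 and 20.3 TPM. Both sets of siCNOT4 values lay within the siControl range, with log2 fold changes of -0.24 and -0.01. SREBF1, the regulator of the arm and its least abundant member, was at 14.7 and 8.67 TPM in siControl and at 5.66 and 6.66 TPM in siCNOT4. It had the lowest log2 fold change of all members (-0.79, SE 0.33, limma adjusted p = 0.125), and the groups did not overlap.

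FADS1, FADS2 and SREBF1 were called lower under each of the 3 alternatives that remove the general shift between libraries. After TMM scaling they were the 3 members called lower (background 4.33%), and 0 were called higher (background 4.45%). Their log2 fold changes were then -1.27, -0.92 and -1.27. After quantile normalization the same 3 were called lower (background 8.23%) and HMGCS1 higher (background 7.11%). When each library's trend with transcript length and GC content was removed, 7 members were called lower (background 13.5%) and 0 higher (background 11.9%). The 7 were FADS1, FADS2, SREBF1, SCD, FASN, ELOVL6 and FDFT1, so 6 of 8 fatty acid genes and 1 of 20 sterol genes were called lower there. Being called lower under all 3 alternatives was not particular to members, since the desaturases FADS3 and SCD5, which are not members, shared it.

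The siControl replicate used as the reference decided the direction of several fatty acid genes. Without siControl replicate 1, 12 sterol genes were called higher (STARD4 and HMGCS1 among them) and 3 lower, and 4 fatty acid genes were called higher (FASN, ACACA, ACLY and ELOVL6) and 2 lower (SREBF1 and FADS1). The background was then 70.9% higher and 8.73% lower. Without siControl replicate 2, 10 sterol genes were called higher and 1 lower (SREBF2), and 0 fatty acid genes were called higher and 6 lower (all but ACACA and ACLY), against a background of 47.2% higher and 10.3% lower. SREBF1 and FADS1 were lower in both of these fits, with log2 fold changes of -0.44 and -0.39 without replicate 1 and of -1.14 and -1.07 without replicate 2. FADS2 had -0.06 and -0.70 in the same fits, and LSS had 1.14 and 0.34. In each, the siControl group had a single library, which was assumed to vary like the siCNOT4 pair. Over the members the SD between replicates was 0.52 in siControl and 0.11 in siCNOT4, so calls in these fits understate the spread. Without siCNOT4 replicate 1 and then replicate 2, SREBF1 had log2 fold changes of -0.686 and -0.888 and FADS1 -0.805 and -0.659. Neither gene was called there.

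**Figure D3:**
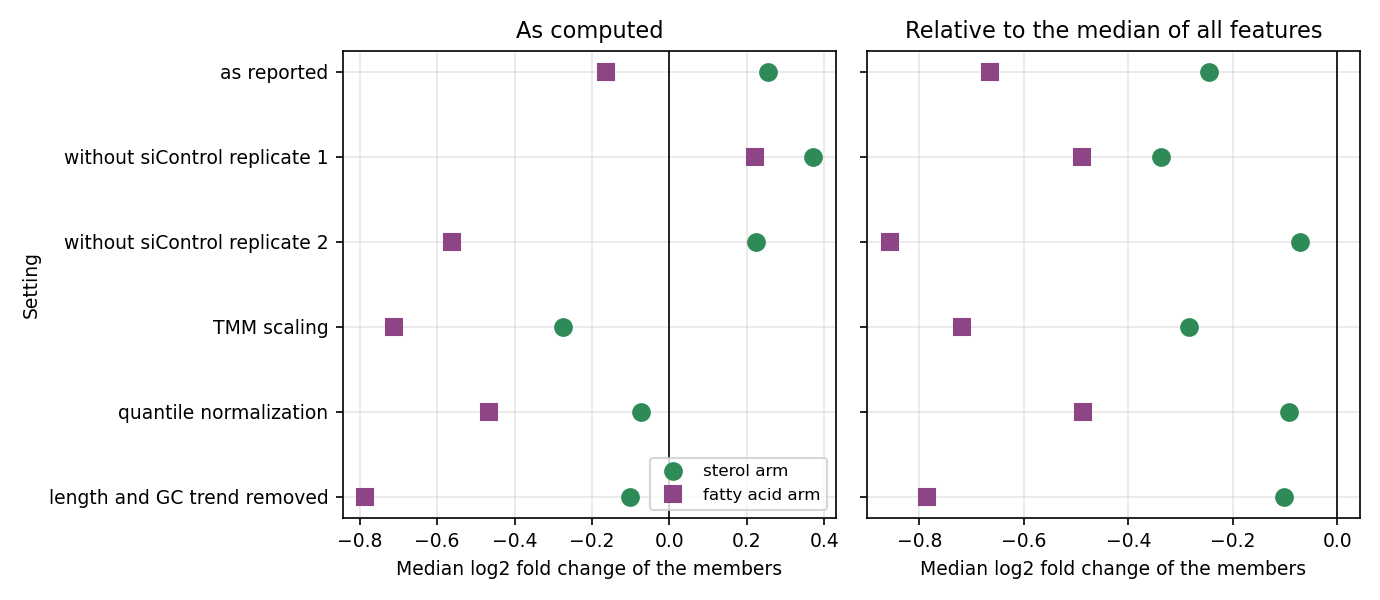
Median of the members' log2 fold changes between groups for the sterol arm (green circles, 20 genes) and the fatty acid arm (purple squares, 8 genes) under 6 settings, as computed on the left and relative to the median of all features on the right. The fatty acid arm is below the sterol arm in each setting shown, while the zero line falls differently with the scaling and with the siControl replicate left out.

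The arms were also compared within each library, where the scaling of a library matters little. The median log2(TPM + 1) of the sterol arm minus that of the fatty acid arm came to -0.19 and 0.12 in the siControl libraries and to 0.65 and 0.71 in the siCNOT4 libraries. The groups did not overlap, and the change of 0.71 exceeded the pooled SD of 0.16. This change was 0.71 after TMM scaling, 0.77 after quantile normalization and 0.73 with the length and GC trend removed. It compares the level of the middle genes of each arm. With TPM as deposited, the middle genes of the fatty acid arm were FADS1 and FADS2 in every library. The change in that arm's median thus restates the differences of FADS1 and FADS2 and is not a separate result for the arm. The difference between the median fold changes of the arms, which compares the typical change of a gene, was smaller: 0.42 with all libraries, 0.15 without siControl replicate 1, 0.79 without siControl replicate 2, and 0.68 with the length and GC trend removed. In siControl the arms stood level on average (-0.03), and in siCNOT4 the median sterol gene stood above the median fatty acid gene.

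Ratios between members within single libraries are given for pairs that were chosen after their values were seen, so they are a description. The ratio of HMGCS1 to FADS1 came to 1.46 and 1.52 in siControl replicates 1 and 2, and to 4.70 and 5.00 in the siCNOT4 replicates. This ratio was nearly equal in the siControl libraries although HMGCS1 and FADS1 each differed between them. The ratio of HMGCS1 to SREBF1 was 9.72 and 10.7 against 40.4 and 32.9. The ratio of SREBF2 to SREBF1 was 6.45 and 4.40 against 9.63 and 8.03, with the groups apart. Inside the fatty acid arm, ACACA to FASN was 0.175 and 0.174 against 0.290 and 0.241, and ACLY to SCD was 0.641 and 0.581 against 0.886 and 0.975.

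**Figure D4:**
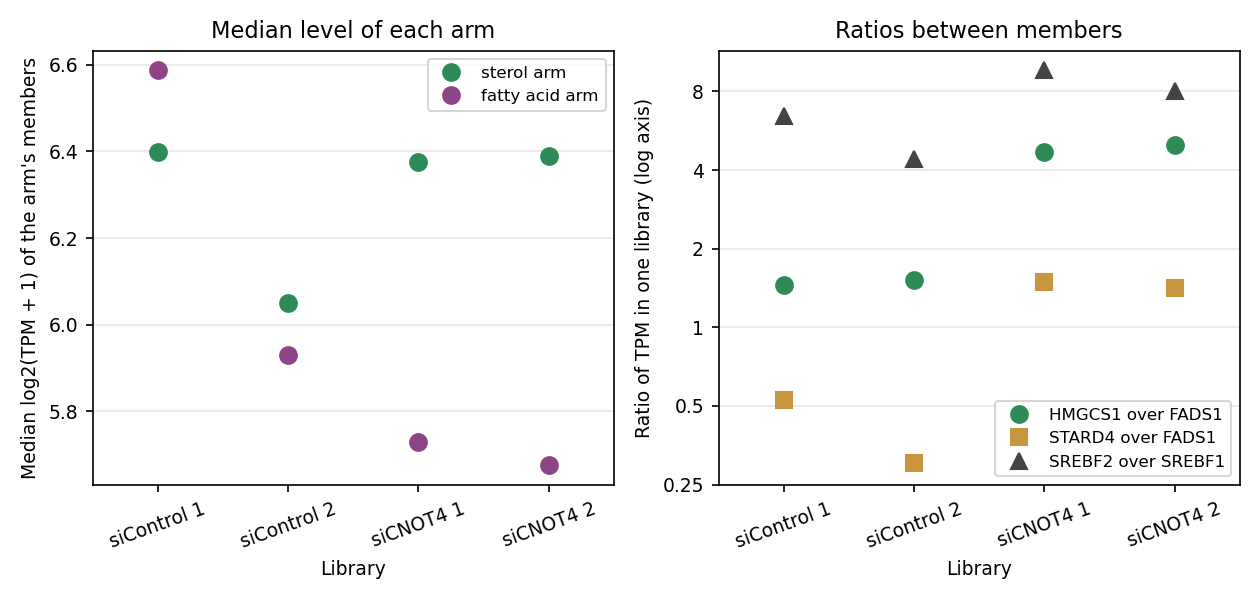
Left, the median log2(TPM + 1) of the sterol arm (green) and the fatty acid arm (purple) in each library. The fatty acid median lies between FADS1 and FADS2 in every library. Right, ratios of TPM between members in each library on a log axis: HMGCS1 over FADS1 is 1.46 and 1.52 in siControl and 4.70 and 5.00 in siCNOT4.

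Genes around the synthesis routes were taken from 5 further lists of lipid genes, whose counts are to be read against the 11.3% of all features called higher and 1.29% called lower. Of 12 genes of SREBP processing and sterol turnover, 2 were called higher and 0 lower: LIPA, the lysosomal acid lipase that frees cholesterol from its esters (75.6 and 42.7 TPM in siControl, 165.5 and 153.2 TPM in siCNOT4, limma adjusted p = 0.0345), and NPC1, which exports that cholesterol from the lysosome (31.2 and 14.4 against 58.7 and 61.7 TPM, limma adjusted p = 0.0499). The list's median log2 fold change was 0.63, against 0.50 for all features, and 2 of 12 is near the background of 11.3%. SCAP, the escort of SREBPs, which was singled out after its values were seen, was at 38.6 and 33.6 TPM in siControl and at 26.8 and 30.2 TPM in siCNOT4, with a log2 fold change of -0.33 (limma adjusted p = 0.272). It was the 1 gene of this list with both siCNOT4 libraries below both siControl libraries (10.6% of all features). In 9 of 12 they lay above (66.4% of all features), among them INSIG2, MBTPS1 and MBTPS2 with log2 fold changes of 0.86, 0.51 and 0.67.

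Of 7 tested genes of the LXR and sterol efflux list, 2 were called higher (background 11.3%) and 0 lower (background 1.29%). ABCG1, a sterol exporter and LXR target, rose from 1.13 and 0.641 TPM to 3.93 and 4.85 TPM (log2 fold change 1.52, limma adjusted p = 0.0255). Its mean was 0.888 TPM in siControl and 4.39 TPM in siCNOT4, so it passed the filter only through the group where it was high. The filter thus favoured its direction, and its call is a description only. LPCAT3, a phospholipid remodelling enzyme and LXR target, rose from 40.4 and 27.7 TPM to 68.8 and 70.9 TPM (limma adjusted p = 0.0449). Other LXR targets did not share this: MYLIP, a ubiquitin ligase, had overlapping groups (log2 fold change 0.19, limma adjusted p = 0.693), and SREBF1 was lower in both siCNOT4 libraries, as given above. NR1H2, which encodes LXR beta, was at 24.3 and 21.9 TPM in siControl and at 15.1 and 18.1 TPM in siCNOT4 (log2 fold change -0.46, limma adjusted p = 0.198). NR1H3, which encodes LXR alpha, went the other way, at 7.33 and 6.31 TPM against 11.7 and 12.0 TPM (log2 fold change 0.72, limma adjusted p = 0.0985). RXRA and RXRB of this list were also higher in both siCNOT4 libraries (log2 fold changes 0.30 and 1.07). MYLIP, NR1H2, NR1H3, RXRA and RXRB were named after their values were seen. In the non-sterol isoprenoid branch, which also uses farnesyl diphosphate, 1 of 10 genes was called higher, no more than the background of 11.3%: GGPS1, the geranylgeranyl diphosphate synthase, rose from 38.0 and 36.1 TPM to 88.3 and 86.3 TPM (limma adjusted p = 0.0244).

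Of 20 other genes of fatty acid supply and handling, 3 were called higher (background 11.3%) and 1 lower (background 1.29%). ELOVL4 and TECR, of very-long-chain elongation, had log2 fold changes of 1.33 and 1.10, and ACACB, the mitochondrial acetyl-CoA carboxylase, 1.26. MID1IP1, an activator of acetyl-CoA carboxylase, fell from 58.7 and 45.2 TPM to 22.3 and 21.8 TPM (log2 fold change -1.19, limma adjusted p = 0.0349). Of 12 fatty acid oxidation genes, 3 were called higher and 1 lower, against the same background. CPT1A, which controls fatty acid entry into mitochondria, had a log2 fold change of 1.27 and the carnitine carrier SLC25A20 1.22, whereas the isomerase ECI1 had -0.93. Among the called genes named from these lists, TMM scaling ended the calls of NPC1, LPCAT3, GGPS1, TECR, SLC25A20 and ECI1 (limma adjusted p 0.0538 to 0.0817), and trend removal that of ACACB (0.0639). Calls were also gained. SCAP, NR1H2 and the desaturases FADS3 and SCD5 were called lower under TMM scaling, quantile normalization and trend removal alike (limma adjusted p 0.0155 to 0.0494). The background was 4.33%, 8.23% and 13.5% lower, and these genes were named after their values were seen. Leaving out either siCNOT4 library ended the call of each gene named as called with TPM as deposited, other than LIPA and ABCG1. Of these, ABCG1 had passed the filter only through its level in siCNOT4. The median log2 fold change was 0.61 in the supply list, 0.43 in the oxidation list, 0.72 in the LXR list and 0.59 in the isoprenoid list, against 0.50 for all features, so the oxidation list lay below that median. Each lay above the medians of the sterol arm (0.26) and the fatty acid arm (-0.17), with no test of these differences.

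Several members share exon sequence with another gene in GENCODE 29, so their levels are uncertain where strand was not used in counting. ACAT2 overlaps SOD2-OT1 by 1458 bases (33.9% of its exon bases) and TCP1 by 397, MVK overlaps MMAB by 306, SREBF1 overlaps RAI1 by 556, HMGCS1 overlaps an antisense RNA by 703, FDPS overlaps RUSC1-AS1 by 693 and IDI1 overlaps IDI2-AS1 by 643. CYP51A1 shares 2844 bases (79.4% of its exon bases) with the protein-coding model AC000120.2 on its own strand, which strand-aware counting would not resolve. HSD17B7 has a pseudogene copy, and reads of these loci may be divided between them.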

How the data were processed

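RNA was extracted from HEK293 cells and sequenced as stranded poly(A) libraries, per the labels' protocols. The submitters' processing notes name FastQC 0.11.2, STAR 2.5.3a, featureCounts and hg19, with no role or order. The annotation, gene lengths and strand setting are not given in the sources used here. The authors deposited TPM per gene symbol for each library, per the file headers. Each library sums to 1000000 TPM, so values are relative, and TPM carries no read totals, so no counting interval is given. Libraries had 17531 to 18667 features above 0.

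Sample titles gave the groups. Values were analysed as log2(TPM + 1), and the 14208 features whose mean reached 1 TPM were tested with limma 3.58.1 (R 4.3.3; lmFit, eBayes with trend, no covariates). Fold changes are on that scale and understate those of low genes. Benjamini-Hochberg adjustment ran over all tested features, with a threshold of 0.05. The step was tested on simulated data. The members and lists were chosen with earlier results of these data known, so lists are described by counts and medians with no test. Full values were given for called members, the 3 highest and 3 lowest log2 fold changes of each arm, the SREBP regulators, and at most 4 called genes of each other list. A called gene of these lists is counted but not reported by name here. Other genes given with full values were chosen after their values were seen. Alternatives were a pseudocount of 0.1, no filter, a mean TPM of at least 5, TMM scaling, quantile normalization, removal of length and GC trends, a replicate block and leaving out each library. Transcript length and GC content came from GENCODE 29 (GRCh38): 18438 symbols matched directly and 957 through an older symbol.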

Additional observations from a re-analysis of the deposited data

How the results depend on the processing

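Counts of called genes depended most on the settings. The 1792 features called became 558 with a pseudocount of 0.1, 908 with no filter, 147 at a mean TPM of at least 5 and 3485 after trend removal (each library's trend with transcript length and GC content). Leaving out each library gave 450 to 11311, the highest without siControl replicate 1 and the lowest without siCNOT4 replicate 2. In the sterol arm 1 call became 0 with a pseudocount of 0.1, with no filter, at a mean TPM of at least 5 and after TMM scaling, and 0 to 15 when each library was left out. In the fatty acid arm 0 calls became 3 after TMM scaling, 3 after quantile normalization and 6 after trend removal, and 0 to 6 when each library was left out. The 16 members whose groups did not overlap became 18 to 26 when each library was left out. A group of 1 library overlaps the other group less readily, so this count tends to rise whatever the members do. With all libraries, the split of 12 higher and 4 lower became 2 and 16 (TMM), 7 and 11 (quantile) and 4 and 17 (trend removal). Shares over all features were not computed for these alternatives, so the counts are no result about the members.

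The sterol arm median of 0.255 became -0.275 (TMM), -0.074 (quantile) and -0.102 (trend removal). The fatty acid arm median of -0.165 became -0.71 (TMM) and -0.785 (trend removal), and -0.562 to 0.22 when each library was left out. The difference between the arm medians, 0.42, became 0.684 after trend removal and 0.151 (without siControl replicate 1) to 0.785 (without siControl replicate 2). Of the members' results under all alternatives, 42 changed sign, 49 came under and 7 went over the threshold with the same sign, and 210 kept sign and side. Scaling that removes the general shift changed the sign of members with positive values of up to 0.49 (CYP51A1). After TMM scaling ACACA was -0.043, CYP51A1 -0.046, MSMO1 -0.107, DHCR7 -0.134, ACAT2 -0.139, ACLY -0.177, TM7SF2 -0.266, MVK -0.284, SQLE -0.376, INSIG1 -0.391, NSDHL -0.42 and FDPS -0.503. After quantile normalization ACACA was -0.032, SQLE -0.067, DHCR7 -0.082, NSDHL -0.133, TM7SF2 -0.157, INSIG1 -0.165 and MVK -0.271. After trend removal ACAT2 was -0.066, MVK -0.071, CYP51A1 -0.132, FDPS -0.136, ACLY -0.169, MSMO1 -0.169, NSDHL -0.186, ACACA -0.272, SQLE -0.318 and INSIG1 -0.348. When each library was left out, ACLY ranged from -0.032 to 0.769, DHCR7 from -0.173 to 0.968, EBP from -0.432 to 0.001, ELOVL6 from -0.364 to 0.345, FASN from -0.557 to 0.369, INSIG1 from -0.094 to 0.397, MVD from -0.105 to 0.068, PMVK from -0.332 to 0.081, SCD from -0.567 to 0.096 and SREBF2 from -0.8 to 0.49. The cause of these changes was not tested.

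The replicates share a number only: deviations of same-numbered libraries had a correlation of 0.171 over 2 pairs. With the replicate block 3655 of 14208 features were called, 3342 higher and 313 lower. In the sterol arm 3 of 20 genes were called higher (HMGCS1, IDI1 and STARD4) and 0 lower, which is not above that background. In the fatty acid arm 0 of 8 genes were called higher and 1 lower (FADS1).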
